A study of Homo sapiens with 12 samples.

Results

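The RecQ helicases are the 5 human genes WRN, BLM, RECQL (also called RECQ1), RECQL4 and RECQL5. They were taken by gene symbol from the deposited table of 25343 genes, and all 5 were among the 14199 genes expressed highly enough to be tested. The study targeted WRN with Cas9: Cas9-expressing SW48 and OVK18 cells received sgWRN2 or sgWRN3, which are guides against WRN, or sgCh2-2, a control guide that cuts between genes on chromosome 2. WRN is therefore described as the target of the guides, and BLM, RECQL, RECQL4 and RECQL5 are described apart from it. SW48 is an established colorectal cancer line and OVK18 an established ovarian cancer line. Cells were collected 72 hours after transduction, and RNA-seq libraries were made from total RNA with an mRNA kit. There are 6 groups of 2 libraries, A and B: SW48 with sgWRN2, with sgWRN3 and with sgCh2-2, and OVK18 with sgWRN2, with sgWRN3 and with sgCh2-2. Every group, the controls included, carries Cas9 and a cutting guide, so no group shows cells without Cas9 or without a cut. The labels do not say whether A and B are separate cultures, so the p-values measure only the spread between these libraries, which may be technical.

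RecQ helicases unwind DNA in the 3′ to 5′ direction and act on replication forks, recombination intermediates and folded DNA. WRN also carries an exonuclease, and its inherited loss causes Werner syndrome. Loss of BLM causes Bloom syndrome and loss of RECQL4 causes Rothmund-Thomson syndrome. BLM works with TOP3A, RMI1 and RMI2 to resolve joined DNA molecules, and RECQL4 takes part in starting replication. Both lines are microsatellite-unstable, a state in which mismatch repair is lost, and tumour cells of that kind are known to depend on WRN.

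Total counts per library ranged from 15423162 to 32581625, and each RecQ helicase had between 174 and 3064 counts in each library, so counting error alone was 1.81% to 7.58% of a value. The 2 libraries of every group differed from each other by more than counting noise. Of 8 colorectal epithelial markers, the summed level was 793 to 894 CPM (counts scaled to a common library size) in SW48 libraries and 0.384 to 1.02 CPM in OVK18 libraries, and CDX1 was at 0 in SW48. A list of 7 ovarian or Mullerian markers summed to 103 to 119 CPM in SW48 libraries and to 74.3 to 81.6 CPM in OVK18 libraries. That list did not set OVK18 apart, and PAX8 was at 0 in the OVK18 controls. Fibroblast markers, led by COL3A1, summed to 0.324 to 0.577 CPM in SW48 and to 410 to 481 CPM in OVK18. Leukocyte markers summed to 10.5 to 14.0 CPM in SW48 and 3.996 to 6.17 CPM in OVK18, and endothelial markers to at most 0.242 CPM in any library.

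WRN transcripts were lower with both WRN guides than with the control guide in SW48. WRN stood at 37.2 and 34.1 CPM in SW48 sgWRN2 libraries, at 42.3 and 56.9 CPM in SW48 sgWRN3 libraries, and at 91.2 and 112 CPM in SW48 sgCh2-2 libraries. All 4 libraries with a WRN guide lay below both controls, a lower separation that 5.33% of all tested genes also had. Group means were 35.6 ± 2.19 CPM with sgWRN2, 49.6 ± 10.3 CPM with sgWRN3 and 101 ± 14.4 CPM with sgCh2-2 (SD, n = 2 each), which is 35.1% of control for sgWRN2 and 48.9% for sgWRN3. Over both guides WRN fell by 1.27 on the log2 scale (SE 0.132, 95% interval -1.56 to -0.98, edgeR adjusted p = 0.00409), a 2.41-fold lower level. Genes called lower at an adjusted p under 0.05 made up 0.613% of those tested, and WRN ranked second of all tested genes by p. Without SW48 sgCh2-2 library B the change was -1.13 with adjusted p = 0.0667, and without the sgWRN2 libraries it was -1.03 with adjusted p = 1, or -1.04 with adjusted p = 2.11e-06 where library letter was then added as a replicate block. Over 24 alternatives, which are other filters, scalings, tools and sets of libraries, the adjusted p ran between 6.43e-20 and 1, and 22 of them kept the call. These counts cover whole transcripts of the gene, so edited and unedited WRN transcripts cannot be told apart in them.

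In OVK18, WRN had 22.0 and 21.0 CPM in sgWRN2 libraries, 22.2 and 23.0 CPM in sgWRN3 libraries, and 32 and 39.8 CPM in sgCh2-2 libraries. The 4 libraries with a WRN guide were again all below both controls, as were those of 3.84% of tested genes. Means were 21.5 ± 0.724 CPM with sgWRN2, 22.6 ± 0.564 CPM with sgWRN3 and 35.9 ± 5.50 CPM with sgCh2-2 (SD, n = 2 each), or 59.8% of control for sgWRN2 and 62.8% for sgWRN3. The difference was -0.71 on the log2 scale (SE 0.136, 95% interval -1.003 to -0.41) and did not pass the test (edgeR adjusted p = 0.206, rank 16 by p). In this comparison 0.0282% of tested genes were called in either direction. WRN was called in 3 of 24 alternatives: with no filter on low counts (-0.70, adjusted p = 0.000215), with DESeq2 (-0.70, adjusted p = 0.00577), and with a replicate block after the sgWRN2 libraries were left out (-0.67, adjusted p = 0.00179). Over all 24 the adjusted p was 0.000215 to 1.

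The difference between lines was tested directly. The effect of both guides on WRN was -1.27 in SW48 and -0.71 in OVK18 on the log2 scale, a difference of -0.56 (SE 0.195, 95% interval -0.99 to -0.14, edgeR adjusted p = 1). Only 0.0282% of tested genes were called for a difference between lines, and none of the 5 RecQ helicases was among them (edgeR; 1 of the 5, WRN, had an unadjusted p under 0.05, and DESeq2 called none of the 5). The WRN guides were also set against each other. In SW48 the sgWRN2 libraries were below the sgWRN3 libraries for WRN, as for 13.9% of tested genes, with a difference of -0.48 (SE 0.162, adjusted p = 0.310). In OVK18 that difference was -0.07 (SE 0.164, adjusted p = 0.908).

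**Figure D1:**
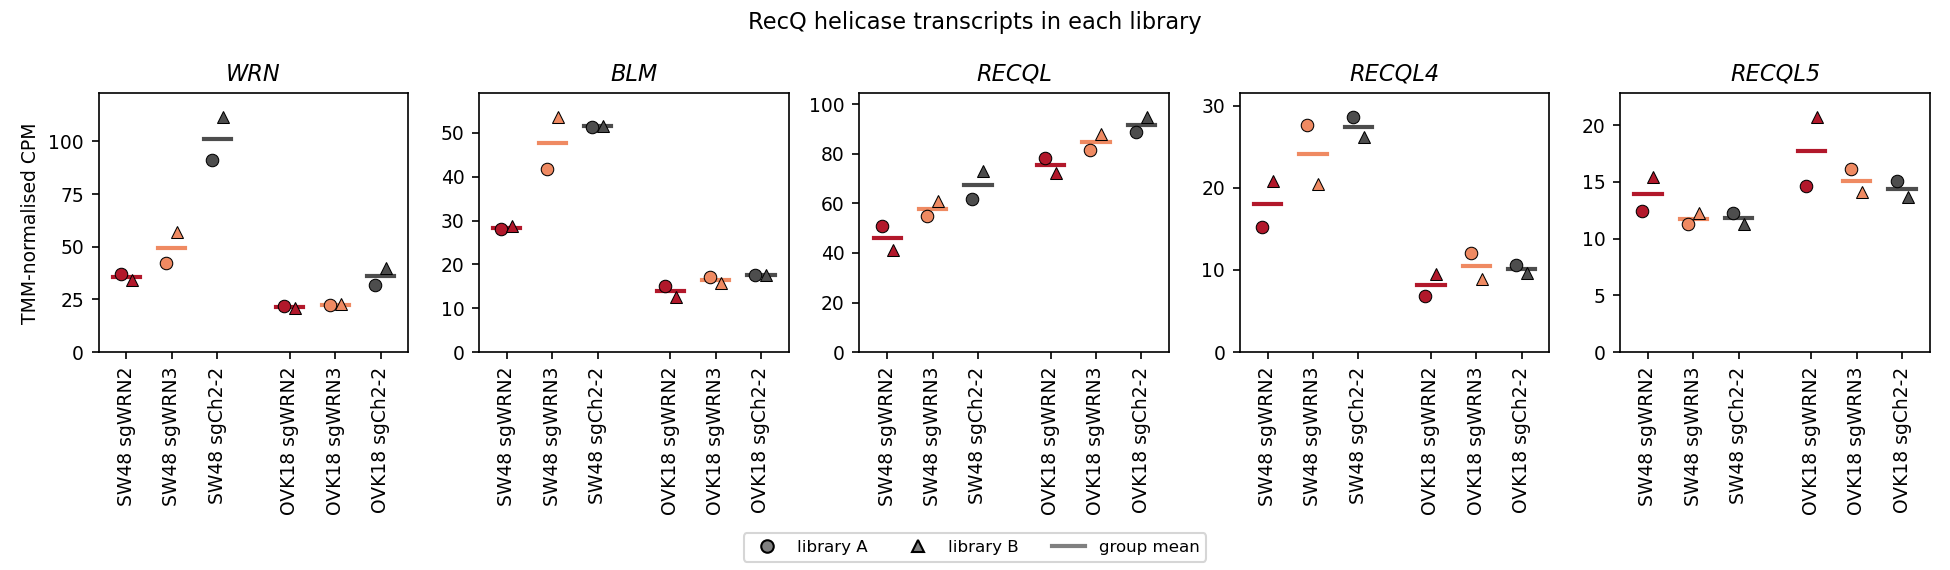
Normalised counts in CPM (y axis, linear, from 0) of each RecQ helicase in each of the 12 libraries, by line and guide on the x axis; circles are library A, triangles library B, and bars group means. WRN is below both controls in every WRN-guide library of each line, while BLM in SW48 is at 28.1 and 28.7 CPM with sgWRN2, at 41.7 and 53.6 CPM with sgWRN3 and at 51.4 and 51.6 CPM with sgCh2-2.

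BLM, the helicase of the complex that separates joined DNA molecules, differed between the 2 WRN guides in SW48. It had 28.1 and 28.7 CPM in sgWRN2 libraries, 41.7 and 53.6 CPM in sgWRN3 libraries, and 51.4 and 51.6 CPM in sgCh2-2 libraries. The sgWRN2 libraries lay below all others, while sgWRN3 library B was above both controls, as seen in the plot of levels by library. Group means of BLM were at 55.1% of control with sgWRN2 and at 92.5% with sgWRN3. With sgWRN2 set against sgWRN3, BLM fell by 0.75 on the log2 scale (SE 0.139, 95% interval -1.05 to -0.44, edgeR adjusted p = 0.0275). In this comparison 0.655% of tested genes were called lower, and 13.9% had sgWRN2 libraries all below sgWRN3 libraries. The call was lost without SW48 sgWRN2 library A (-0.73, adjusted p = 0.262), without SW48 sgWRN2 library B (-0.78, adjusted p = 0.188) and without SW48 sgWRN3 library B (-0.58, adjusted p = 0.222). It was also lost in a fit of the 6 SW48 libraries alone (-0.76, adjusted p = 0.0626) and with a replicate block (-0.74, adjusted p = 0.0805). It held in 17 of 22 alternatives, with adjusted p between 8.58e-05 and 0.262.

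Over both guides in SW48, BLM stood at -0.49 (SE 0.116, 95% interval -0.74 to -0.23) and did not pass the test (edgeR adjusted p = 0.0940). Of 24 alternatives, 5 called it: no filter on low counts (adjusted p = 0.0269), DESeq2 (-0.47, adjusted p = 0.0127), limma on FPKM (counts scaled by transcript length and depth) with a pseudocount of 1 (adjusted p = 0.0237) or 0.1 (adjusted p = 0.0373), and leaving out SW48 sgWRN3 library B (-0.58, adjusted p = 0.0427). The adjusted p over all 24 was 0.0127 to 1. In OVK18, BLM had 15 and 12.7 CPM with sgWRN2, 17.1 and 15.9 CPM with sgWRN3, and 17.6 CPM in each of the sgCh2-2 libraries. The 4 libraries with a WRN guide were below the controls, as for 3.84% of tested genes, with the sgWRN2 pair lowest. Of all tested genes, 21.7% had the sgWRN2 pair below the sgWRN3 pair in OVK18, and 0.747% were called between these guides. The difference over both guides was -0.22 (SE 0.121, adjusted p = 1), and that between the guides was -0.25 (SE 0.143, adjusted p = 0.466).

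RECQL, the most abundant of the 5 per transcript length, encodes RECQ1, a helicase that restarts reversed replication forks. In SW48 it had 51.0 and 41.0 CPM with sgWRN2, 54.8 and 60.8 CPM with sgWRN3, and 61.7 and 73.1 CPM with sgCh2-2. In OVK18 it had 78.2 and 72.4 CPM with sgWRN2, 81.4 and 87.9 CPM with sgWRN3, and 88.7 and 94.9 CPM with sgCh2-2. In each line every WRN-guide library was below both controls, as for 5.33% of tested genes in SW48 and 3.84% in OVK18. The sgWRN2 pair was below the sgWRN3 pair, as for 13.9% of tested genes in SW48 and 21.7% in OVK18. The differences over both guides were -0.38 in SW48 (SE 0.110, 95% interval -0.62 to -0.15, adjusted p = 0.197) and -0.20 in OVK18 (SE 0.108, 95% interval -0.44 to 0.04, adjusted p = 1), and neither passed the test. Between the guides the differences were -0.33 in SW48 (SE 0.130, adjusted p = 0.452) and -0.17 in OVK18 (SE 0.126, adjusted p = 0.594). Over both guides RECQL was not called in any of 24 alternatives in either line, and its estimate was below 0 in all of them. In GRCh38.p14, RECQL overlaps PYROXD1, which averaged 26.4 CPM over all SW48 libraries and 41.4 CPM over all OVK18 libraries. Whether strand was used in counting is not given in the sources used here, so reads where these genes overlap are uncertain.

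RECQL4, which helps load replication factors at origins, was higher in library B than in A with sgWRN2 in both lines. It was higher in library A than in B with sgWRN3 and with sgCh2-2 in both lines. It had 15.2 and 20.9 CPM in SW48 sgWRN2 libraries, 27.7 and 20.5 CPM in SW48 sgWRN3 libraries, and 28.6 and 26.1 CPM in SW48 sgCh2-2 libraries. In OVK18 it had 6.76 and 9.54 CPM with sgWRN2, 12 and 8.88 CPM with sgWRN3, and 10.6 and 9.66 CPM with sgCh2-2. In both lines the WRN-guide libraries overlapped the controls: sgWRN3 library A lay between the controls in SW48 and above both in OVK18. The differences over both guides were -0.39 in SW48 (SE 0.184, adjusted p = 0.649) and -0.14 in OVK18 (SE 0.195, adjusted p = 1). Between the guides they were -0.42 in SW48 (SE 0.220, adjusted p = 0.698) and -0.37 in OVK18 (SE 0.231, adjusted p = 0.505). The OVK18 estimate over both guides turned to 0.04 without the sgWRN2 libraries.

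RECQL5, which binds RNA polymerase II, had estimates above 0 where the other 4 were below it. It had 12.4 and 15.4 CPM in SW48 sgWRN2 libraries, 11.3 and 12.2 CPM in SW48 sgWRN3 libraries, and 12.3 and 11.3 CPM in SW48 sgCh2-2 libraries. OVK18 had 14.7 and 20.7 CPM with sgWRN2, 16.1 and 14.1 CPM with sgWRN3, and 15.1 and 13.7 CPM with sgCh2-2. The 4 WRN-guide libraries overlapped the controls in both lines, though in SW48 the sgWRN2 pair was above the sgWRN3 pair, as for 18.8% of tested genes. The differences over both guides were 0.12 in SW48 (SE 0.162, 95% interval -0.24 to 0.47) and 0.18 in OVK18 (SE 0.156, 95% interval -0.16 to 0.52), each with adjusted p = 1. With sgWRN2 set against sgWRN3, RECQL5 stood at 0.24 in SW48 (SE 0.190, adjusted p = 0.868) and at 0.22 in OVK18 (SE 0.180, adjusted p = 0.627). Over both guides the SW48 estimate was -0.01 without the sgWRN2 libraries. RECQL5 overlaps SMIM5, which averaged 0.647 CPM over all SW48 libraries and 0.0320 CPM over all OVK18 libraries, and ERLN in GRCh38.p14.

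**Figure D2:**
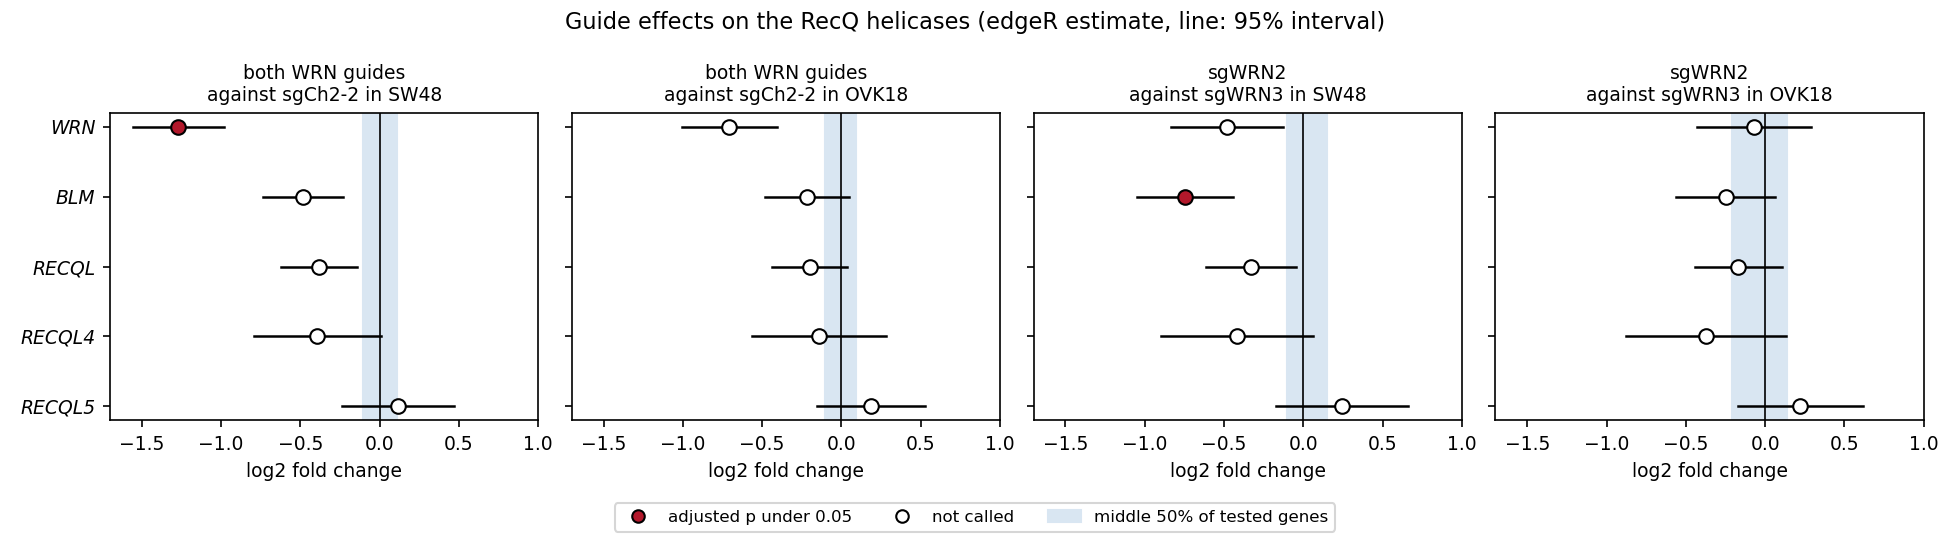
Log2 fold changes (x axis) of the 5 RecQ helicases in 4 comparisons, with 95% intervals as lines, filled points for an adjusted p under 0.05 and a band for the middle 50% of tested genes. WRN in SW48 (-1.27) and BLM for sgWRN2 against sgWRN3 in SW48 (-0.75) are the filled points, and RECQL5 is the only member to the right of 0 in each panel, at 0.12 in SW48 and 0.18 in OVK18 over both guides.

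None of the 4 helicases other than WRN was called over both guides in SW48 by edgeR (2 of 4, BLM and RECQL, had an unadjusted p under 0.05, and DESeq2 called BLM). Of all 14199 tested genes, 123 (0.866%) were called in SW48 and 1113 had an unadjusted p under 0.05. None was called in OVK18 by edgeR or DESeq2, with 0 of 4 at an unadjusted p under 0.05, where 4 of all tested genes (0.0282%) were called and 573 had an unadjusted p under 0.05. Their median log2 fold change was -0.39 in SW48 and -0.17 in OVK18, beside 0.00 over all tested genes in each line. Estimates of BLM, RECQL and RECQL4 in SW48 were below 0 under all 24 alternatives. In both lines the libraries with sgWRN2 had a lower summed level of proliferation markers: 1135 to 1216 CPM with sgWRN2, 1882 to 2115 CPM with sgWRN3 and 2253 to 2452 CPM with sgCh2-2 in SW48. In OVK18 that sum was 1083 to 1244 CPM with sgWRN2, 1412 to 1450 CPM with sgWRN3 and 1485 to 1492 CPM with sgCh2-2. The group means of WRN, BLM and RECQL had this order in both lines, and those of RECQL4 had it in SW48. By library, BLM in SW48 sgWRN3 library B was above both controls. The part of proliferation in the levels of these helicases was not tested. The leukocyte markers summed to 12.6 to 14.0 CPM with sgWRN2, 10.6 to 11.2 CPM with sgWRN3 and 10.5 to 11.02 CPM with sgCh2-2 in SW48, and the fibroblast markers to 410 to 418 CPM with sgWRN2, 451 to 469 CPM with sgWRN3 and 446 to 481 CPM with sgCh2-2 in OVK18; their part was not tested. In such bulk RNA, fewer cycling cells and less RNA per cell cannot be told apart.

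Promoters were sought for all 5 members, whatever the direction of their estimates, and those of BLM, RECQL and RECQL5 are printed. They come from RefSeq on GRCh38.p14, which held an entry for 3 of the 5 members, from 250 bases before to 50 after the start. Capitals mark GGCGGGAA, an E2F core, and CCAAT, on either strand of the printed sequence. On the opposite strand the shorter motif is printed as ATTGG. The CHR element, 6 letters given with the counts, was searched on both strands too.
BLM, chr15:90717096-90717395, plus strand: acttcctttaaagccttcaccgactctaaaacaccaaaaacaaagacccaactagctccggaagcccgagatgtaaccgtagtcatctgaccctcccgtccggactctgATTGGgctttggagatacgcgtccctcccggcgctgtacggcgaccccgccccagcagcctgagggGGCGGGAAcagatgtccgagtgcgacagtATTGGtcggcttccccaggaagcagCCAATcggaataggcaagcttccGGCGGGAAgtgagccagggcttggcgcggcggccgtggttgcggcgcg
RECQL, chr12:21501586-21501885, minus strand: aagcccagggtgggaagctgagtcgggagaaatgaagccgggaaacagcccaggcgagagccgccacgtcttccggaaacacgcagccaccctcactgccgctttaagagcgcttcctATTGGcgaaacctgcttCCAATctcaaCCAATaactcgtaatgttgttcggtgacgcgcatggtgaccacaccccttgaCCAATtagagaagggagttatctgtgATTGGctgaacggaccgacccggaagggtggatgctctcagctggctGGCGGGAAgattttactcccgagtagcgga
RECQL5, chr17:75667105-75667404, minus strand: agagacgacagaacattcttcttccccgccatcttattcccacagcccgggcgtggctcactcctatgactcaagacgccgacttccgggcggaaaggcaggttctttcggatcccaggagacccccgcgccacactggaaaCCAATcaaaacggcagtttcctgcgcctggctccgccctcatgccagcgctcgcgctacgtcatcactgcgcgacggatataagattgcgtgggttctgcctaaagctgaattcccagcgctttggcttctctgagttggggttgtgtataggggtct
GGCGGGAA occurred 2 times in the BLM promoter, 1 time in that of RECQL and 0 times in that of RECQL5. CCAAT occurred 3 times in BLM, 5 times in RECQL and 1 time in RECQL5, and TTTGAA in none of the 3. Of 35116 promoters of this length, 3.16% held GGCGGGAA, 34.6% held CCAAT and 15.2% held TTTGAA. A match is a description of the letters and not of a bound site.

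Levels of the 5 genes can be compared with each other per length, as FPKM. In SW48 controls RECQL averaged 15.9 ± 1.38 FPKM, WRN 13.3 ± 1.31, BLM 8.85 ± 0.373, RECQL4 5.61 ± 0.490 and RECQL5 2.52 ± 0.187 (SD, n = 2 each). RECQL was above WRN in both of these libraries, at 14.9 beside 12.4 FPKM in library A and 16.9 beside 14.2 FPKM in library B. The other steps were wider than the SDs. In OVK18 controls RECQL averaged 21.2 ± 0.606 FPKM, WRN 4.52 ± 0.551, RECQL5 2.99 ± 0.109, BLM 2.92 ± 0.0818 and RECQL4 2.00 ± 0.210 (SD, n = 2 each). RECQL stood far above the rest, and RECQL5 and BLM were within their spread of each other.

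With sgWRN2 the summed FPKM of the 5 genes in SW48 was 25.6 ± 0.594, with sgWRN3 34.6 ± 0.061, and with sgCh2-2 46.2 ± 1.64 (SD, n = 2 each). In OVK18 it was 27.9 ± 1.28 with sgWRN2, 29.9 ± 0.640 with sgWRN3 and 33.7 ± 0.755 with sgCh2-2 (SD, n = 2 each). WRN made up 17.0% of the sum with sgWRN2, 17.8% with sgWRN3 and 28.8% with sgCh2-2 in SW48. In OVK18 it made up 9.68% with sgWRN2, 9.51% with sgWRN3 and 13.4% with sgCh2-2. WRN accounted for 43.4% of the lower sum with sgWRN2 and 61.8% with sgWRN3 in SW48, and for 31.7% with sgWRN2 and 44.1% with sgWRN3 in OVK18. The other 4 helicases summed to 21.2 FPKM with sgWRN2, 28.4 with sgWRN3 and 32.9 with sgCh2-2 in SW48. None of the 4 was called higher over both guides in either line. Of all 14199 tested genes, only 0.254% were called higher in SW48 and 3 genes in OVK18.

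**Figure D3:**
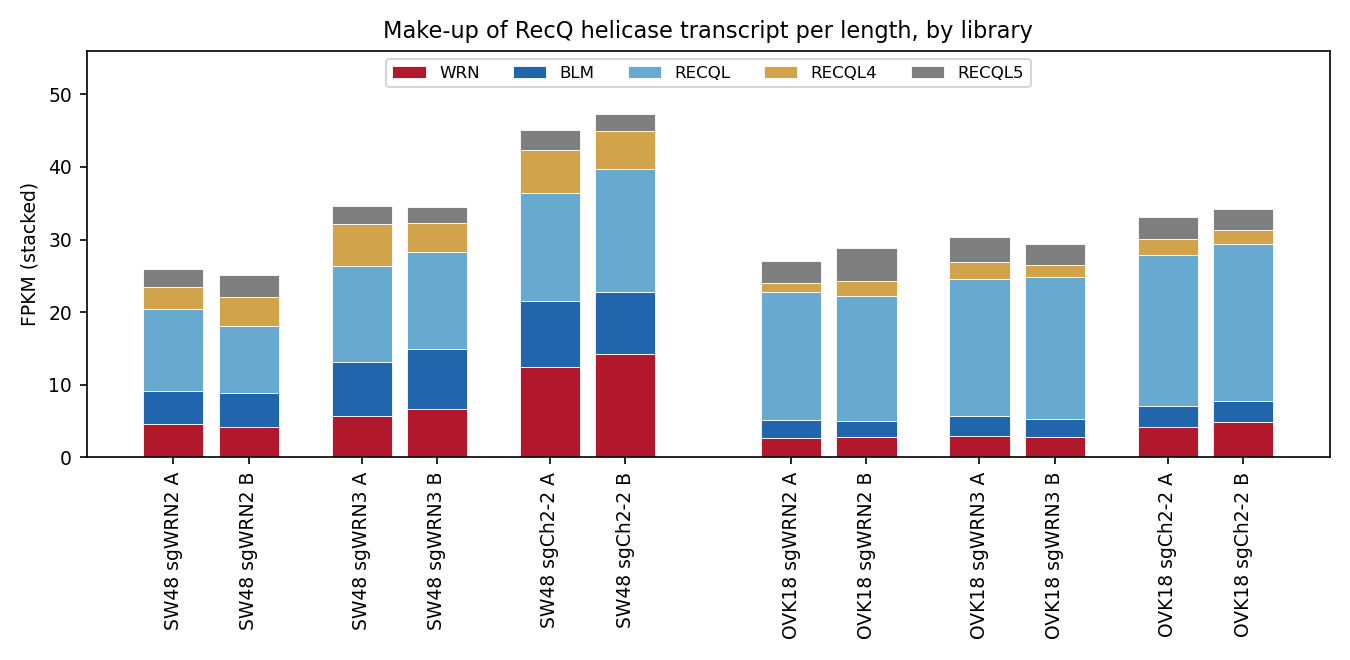
FPKM of the 5 RecQ helicases (y axis, linear, from 0), stacked in 1 bar for each library, by line and guide on the x axis. The bars in SW48 average 25.6 with sgWRN2, 34.6 with sgWRN3 and 46.2 with sgCh2-2, and those in OVK18 average 27.9 with sgWRN2, 29.9 with sgWRN3 and 33.7 with sgCh2-2.

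Without a WRN guide, in the sgCh2-2 libraries, the lines differed in 68.6% of tested genes (33.9% higher and 34.7% lower in SW48). BLM (1.55, SE 0.139, adjusted p = 6.74e-07), WRN (1.49, SE 0.159, adjusted p = 3.49e-06) and RECQL4 (1.44, SE 0.220, adjusted p = 8.68e-05) were higher in SW48 than in OVK18 on the log2 scale. That is 2.93-fold for BLM, 2.82-fold for WRN and 2.71-fold for RECQL4. RECQL was lower in SW48 than in OVK18 (-0.45, SE 0.126, adjusted p = 0.00736). That call was lost without SW48 sgCh2-2 library A (-0.33, adjusted p = 0.0655, range over 23 alternatives 5.10e-06 to 0.0655). RECQL5 did not pass (-0.28, SE 0.182, edgeR adjusted p = 0.187). It was called in 1 of 23 alternatives, without the sgWRN2 libraries and with the replicate block (-0.35, edgeR adjusted p = 0.00996). The proliferation list was also called higher in SW48 for 10 of 12 members and the origin factors for 14 of 16. The part of proliferation in these differences between the sgCh2-2 libraries of the lines was not tested.

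Likeness was measured as Pearson r over 12 libraries of log2 CPM with each line's mean removed, among 11958 genes; libraries share depth and guide, so r is a description. WRN was most alike BOD1 (0.94), C1orf112 (0.93) and SPDL1 (0.91), and most opposite to TNFSF9 (-0.97), BTG2 (-0.93) and IER5 (-0.92). BLM was most alike STIL (0.99), NUSAP1 (0.98) and POLE2 (0.98), and RECQL most alike SPDL1 (0.98), SLBP (0.98) and DEPDC1 (0.97). RECQL4 was most alike TK1 (0.97), N4BP3 (0.96) and REEP4 (0.95). RECQL5 was most alike LOC100506603 (0.95), COG7 (0.93) and LIN37 (0.92). Among the members, WRN and RECQL (0.88) and BLM and RECQL (0.85) were the closest pairs, and RECQL and RECQL5 (-0.74) the most opposite.

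The pathways around the helicases gave the following in SW48 over both guides. Of 3 partners of BLM in joint resolution none was called by edgeR or DESeq2 with all libraries and the filter on low counts (0 of 3, with 2 at an unadjusted p under 0.05; 0.866% of all genes were called; median -0.45). With no filter edgeR called 1 of the 3, and without sgWRN2 but with the replicate block it called 2. RMI1 stood at -0.54 (adjusted p = 0.174), RMI2 at -0.45 (adjusted p = 0.160) and TOP3A at -0.05. Of 24 known protein partners of WRN, 1 fell: EXO1, a nuclease that resects DNA ends, at -0.56 (SE 0.0967, adjusted p = 0.0196). FEN1, which cuts flaps on the lagging strand, was at -0.48 (adjusted p = 0.0545) and DNA2 at -0.43 (adjusted p = 0.335); the median was -0.07. Of 26 other repair helicases 25 were tested, and edgeR called none with all libraries and the filter on low counts. In that fit 6 had an unadjusted p under 0.05 (median -0.08), and DESeq2 called 2. With no filter edgeR called 3, and with a mean of at least 5 CPM it called 1. RAD54L, a motor of homologous recombination, was at -0.59 (edgeR adjusted p = 0.0503).

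The replicative helicase and its loaders fell in 4 of 16 members, where 0.613% of all genes were called lower: GINS2 (-0.61, adjusted p = 0.0156), MCM4 (-0.43, adjusted p = 0.0218), CDC45 (-0.56, adjusted p = 0.0281) and CDC6 (-0.52, adjusted p = 0.0383), and all 16 were below 0 (median -0.45). Proliferation markers fell in 8 of 12 members, among them CCNB1, the mitotic cyclin (-0.73), MKI67 (-0.67) and AURKA, a mitotic kinase (-0.64), each with adjusted p = 0.00507. Of 10 p53 targets, 5 rose, where 0.254% of all genes were called higher: GDF15 (1.09, adjusted p = 0.0175), CDKN1A (1.04, adjusted p = 0.00507), MDM2 (0.76, adjusted p = 0.0218), BTG2 (0.63, adjusted p = 0.00507) and XPC (0.42, adjusted p = 0.0330). The lists were chosen with earlier results of these data known, so their counts beside the shares of all genes are a description. None of the members of these lists was called in OVK18 over both guides by edgeR, and DESeq2 called 1 origin factor. With DESeq2 in SW48 the calls were 13 of 16 origin factors, 11 of 12 proliferation markers and 8 of 10 p53 targets. With the replicate block and all libraries, edgeR called 0 of 16 origin factors, 5 of 12 proliferation markers and 2 of 10 p53 targets. In a fit of the 6 SW48 libraries alone it called 0 origin factors, 7 proliferation markers and 4 p53 targets. Both of these fits called 0 of 24 WRN partners, so EXO1 lost its call. The 4 origin calls dropped to 0 or 1 when any 1 of the 6 SW48 libraries was left out. Proliferation calls were 0 to 8 and p53 target calls 0 to 3 over the same left-out libraries, and a WRN partner was called in 2 of those 6. Without SW48 sgCh2-2 library B or without the sgWRN2 libraries, no gene at all was called in SW48 by edgeR (727 genes without that library and 315 without sgWRN2 had an unadjusted p under 0.05). With the replicate block added to the fit without sgWRN2, 151 genes were called, among them 8 of 12 proliferation markers, 6 of 10 p53 targets, 2 of 16 origin factors and 2 of 3 BLM partners. Between the guides in SW48, EXO1 (-0.71, adjusted p = 0.0160), RAD54L (-0.80, adjusted p = 0.0275), 6 of 16 origin factors, 9 of 12 proliferation markers and CDKN1A (0.73, adjusted p = 0.0281) differed, where 0.944% of tested genes were called and 0.289% were called higher, and CDC6 did in OVK18 (-0.87, adjusted p = 0.00819).

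**Figure D4:**
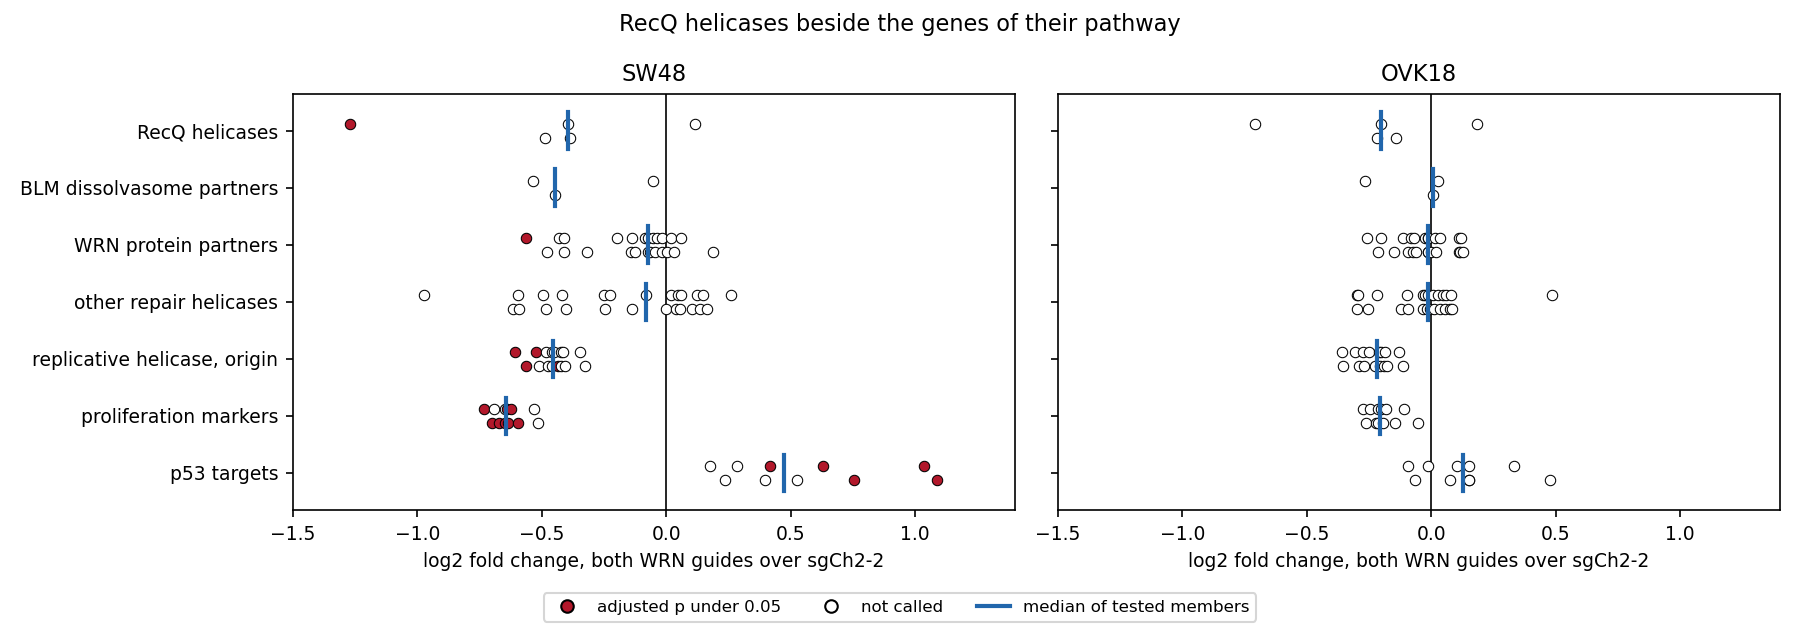
Log2 fold changes (x axis) over both WRN guides for the RecQ helicases and 6 lists of related genes, in SW48 and OVK18, with filled points for an adjusted p under 0.05 and a bar for each list's median. The medians of replicative and origin factors (-0.45) and proliferation markers (-0.64) in SW48 lie to the left of 0, that of p53 targets (0.47) to the right, and OVK18 has no filled point.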

How the data were processed

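The members and the gene lists were chosen with earlier results of these data known. The authors deposited whole-number gene counts, made from reads demultiplexed with bcl2fastq 2.18 and mapped with STAR 2.5 on hg19, per the submitters' processing notes. They also deposited a table read here as FPKM from its values, since no header names the unit; Cufflinks 2.2.1 is named in the same notes. The annotation and strand setting are not given in the sources used here. Spike-in rows (92, all at 0 counts) were left out, and 28 symbols turned to dates are not named.

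The count analysis used edgeR 4.0.16 under R 4.3.3, with TMM scaling, a filter on low counts over 6 groups (14199 of 25343 genes kept), and a robust quasi-likelihood fit with 1 coefficient per group and 6 residual degrees of freedom. P-values were adjusted over all tested genes by the Benjamini-Hochberg method and called under 0.05. The effect of both guides averages the sgWRN2 and sgWRN3 coefficients and subtracts that of sgCh2-2. Named genes were the 5 helicases, up to 4 of each list with the smallest p in SW48, members of lists called elsewhere, and the 3 genes most alike each helicase. A further gene that met this rule is not reported here. Total counts were 15423162 to 32581625 per library. Alternatives used DESeq2 1.42.0, limma 3.58.1 (limma-voom, and limma on log2 FPKM with pseudocounts of 1 and 0.1), other scalings and filters, left-out libraries and a replicate block. Counts of list members called under each alternative were added after seeing the data. The fits were tested on simulated data. No sequence is shown for members without an entry in the promoter table.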

Additional observations from a re-analysis of the deposited data

How the results depend on the processing

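Of 552 values of the 4 other helicases under alternatives, 533 kept their direction and their side of the threshold, 6 lost the call, 6 gained it and 7 turned in sign. No scaling moved the median of all genes by more than 0.1.

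RECQL5 turned to -0.00503 in SW48 without the sgWRN2 libraries and to -0.0110 with a replicate block added. RECQL4 in OVK18 turned to 0.0436 without sgWRN2 and to 0.0317 with the block. Leaving out 1 library at a time, RECQL5 ran from -0.0153 to 0.49 between the guides in OVK18, turning without OVK18 sgWRN2 library B. Its line difference, meaning the guide effect in SW48 minus that in OVK18, ran from -0.19 to 0.0511. That difference turned to 0.00532 without SW48 sgWRN2 library A and to 0.0511 without OVK18 sgWRN2 library B. WRN in SW48 was -1.03 and not called without sgWRN2, and -1.04 and called with the block in addition. WRN in OVK18 was called at -0.70 with no filter, at -0.70 with DESeq2 and at -0.67 with the block after sgWRN2 was left out. The causes were not tested.

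Genes called over both guides in SW48 numbered 123, but 292 with no filter, 298 with DESeq2, 44 with only the line's 6 libraries, 28 with the replicate block, 236 and 191 with FPKM pseudocounts of 1 and 0.1, 0 without sgWRN2 and 151 with the block in addition. In OVK18 they numbered 4, but 30 with no filter, 30 with DESeq2, 1 with only the line's libraries, 2 with the block, 11 with the pseudocount of 0.1, 0 without sgWRN2 and 12 with the block in addition. Between the guides in SW48 the count was 134, but 334, 298, 34, 43, 226 and 219 with no filter, DESeq2, the line alone, the block and the 2 pseudocounts. Between the guides in OVK18 it was 106, but 518, 530, 25, 31, 307 and 198 in that order, and 161 with limma-voom. For the line difference in guide effect it was 4, but 2 with RLE size factors and 17 with no filter. It was 2 with a mean of at least 5 CPM, 11 with DESeq2 and 0 with the block. With the pseudocount of 0.1 it was 7, and without sgWRN2 it was 0. Of the 4 other helicases, 1 was called over both guides in SW48 with no filter, DESeq2 and each pseudocount, against 0, and between the guides in SW48 0 with the line alone or the block, against 1. Library letters did not pair all groups: A-B deviations of sgWRN3 and sgCh2-2 correlated at 0.41 in SW48 and 0.39 in OVK18, and those of sgWRN2 with the other groups of its line between -0.23 and 0.01. Across the lines, those of sgWRN3 and sgCh2-2 groups correlated at 0.33 to 0.37, and those of the 2 sgWRN2 groups at 0.35. Those of sgWRN2 groups with sgWRN3 or sgCh2-2 groups of the other line correlated at -0.30 to 0.02. The block therefore entered as an alternative.

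Leaving out 1 library at a time gave 0 to 174 genes over both guides in SW48, 0 to 4 in OVK18, 3 to 176 between the guides in SW48, 11 to 100 in OVK18 and 0 to 3 for the line difference. WRN in SW48 ran from -1.42 to -1.13. The count of other helicases called was 0 to 1 over both guides and 0 to 1 between the guides in SW48, and 2 to 3 between the lines. With 2 libraries a group, small differences are not detectable.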
